A study of Rattus norvegicus with 4 samples.

Results

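The genes described here are 8 genes of kidney phosphate, calcium and vitamin D handling. They are the phosphate carriers Slc34a1, Slc20a1 and Slc20a2, the sodium-calcium exchanger Slc8a1, the calcium-binding protein gene Calb1, the vitamin D receptor Vdr, and the vitamin D hydroxylases Cyp24a1 and Cyp27b1. They were chosen by name, as all probe sets whose platform gene symbol is one of these names. The rule found 10 probe sets for 7 of the 8 genes, among 10411 named genes on the array. Cyp24a1, the hydroxylase that inactivates vitamin D hormone, was not analysed here.

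The kidney reclaims filtered phosphate in the proximal tubule through sodium-coupled carriers in the brush border, chiefly the product of Slc34a1, which parathyroid hormone and the bone hormone FGF23 withdraw from the membrane. Calcium is reclaimed under hormonal control further along, in the distal convoluted and connecting tubule, where it enters through channels, crosses the cell bound to calbindin and leaves through a pump and the sodium-calcium exchanger. The proximal tubule also takes up filtered vitamin D and turns it into the active hormone, which acts through the vitamin D receptor.

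Whole kidney RNA came from male rats aged 9 weeks, of the inbred spontaneously hypertensive strain (SHR), whose blood pressure is raised by inheritance, and of Brown Norway (BN), an inbred strain without that trait. The 4 groups were SHR exposed to nicotine before birth (13 animals), SHR given saline (12), BN exposed to nicotine (12) and BN given saline (12). RNA of the animals of a group was pooled and hybridised to 1 Affymetrix RAE-230A array, so a value is that of a pool and no group has a replicate. The labels do not state the route, dose or timing of nicotine.

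The values are MAS5 signal intensity on a linear scale of arbitrary units, so levels are not compared between probe sets. Summed signals of marker lists are compared between arrays only, and the brightest probe sets weigh most in them. Ratios were taken on the log2 scale after setting every signal under 44.4 to that value, a floor placed at the 40th percentile. A probe set was called measured where a signal reached 88.9, which is 2 times the floor. Of the 10 probe sets, 5 reached that limit on all 4 arrays, 8 on at least 1 array and 2 on none. Between 59.0% and 60.8% of all probe sets reached the floor on an array.

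The strain comparison set the 2 SHR pools against the 2 BN pools with limma, with treatment as a term, over 7047 probe sets whose higher strain mean reached the limit. The p-values measure variation among 4 arrays of pooled RNA rather than among animals, and were adjusted over all probe sets tested by the Benjamini-Hochberg method with a threshold of 0.05. Of all probe sets tested, 18% passed, 8.63% higher and 9.39% lower in SHR. Nicotine against saline was tested in the same way over 6929 probe sets, with strain as a term. Ratios between 2 single pools have no replicate check and are given by size, without a test. Beta-actin signal at its 3' end over that at its 5' end, a measure of RNA integrity, went with strain, at 1.34 and 1.39 in the SHR nicotine and saline pools against 1.49 and 1.54 in the BN pools. That of Gapdh was 1.11 and 1.0 in SHR against 1.09 and 1.07 in BN. The part of RNA integrity in the strain differences was not tested.

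**Figure D1:**
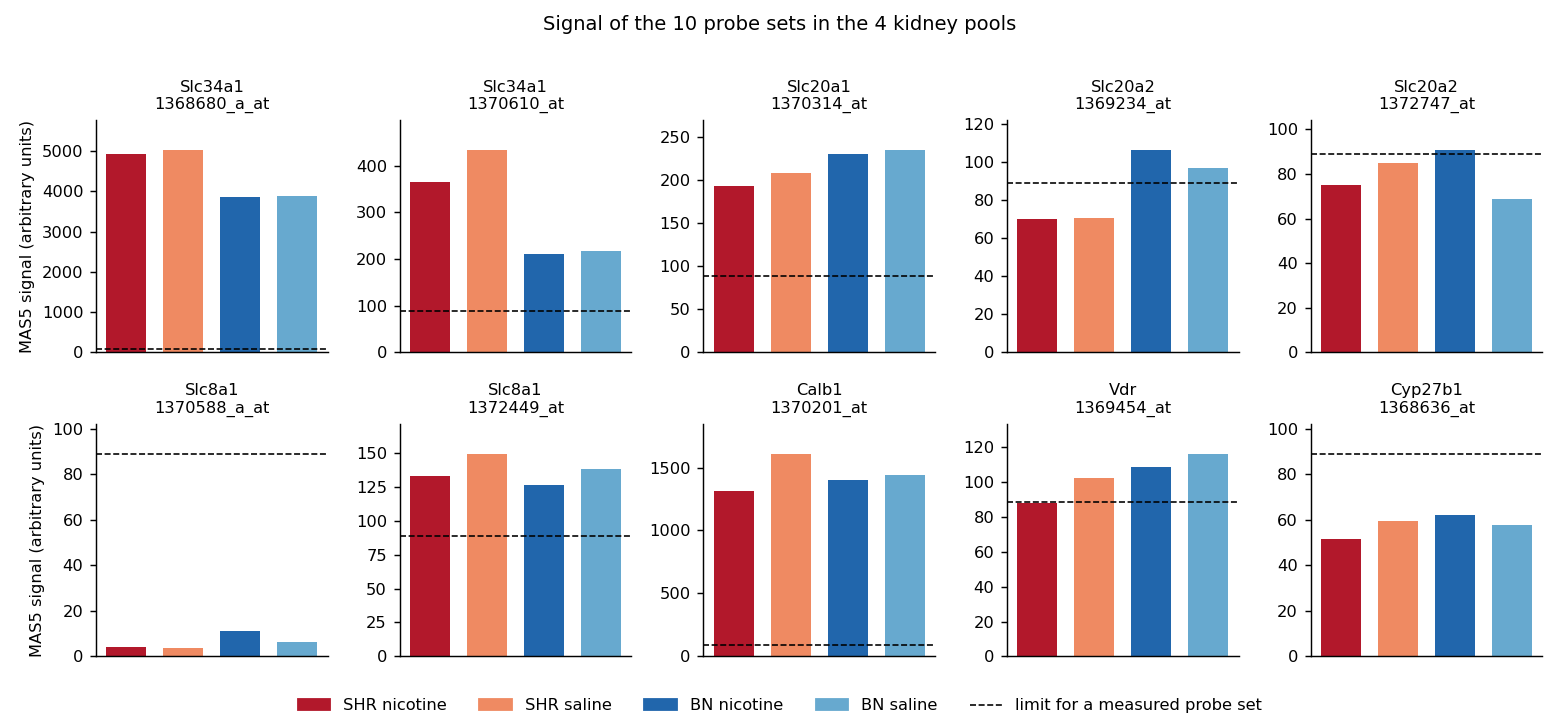
MAS5 signal (arbitrary units, linear axis from 0) of the 10 probe sets in the nicotine and saline pools of SHR and then of BN, 1 bar for each array, each panel with its own axis. The dashed line is the limit of 88.9 for a measured probe set. Both Slc34a1 probe sets stand higher in the SHR pools, and Slc8a1 1370588_a_at and Cyp27b1 stay below the line on all 4 arrays.

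The members that passed the strain test were phosphate carriers. Slc34a1, the main carrier of the proximal tubule brush border, was higher in SHR than in BN on both of its probe sets, by 1.28-fold and 1.86-fold. Slc20a2, a carrier found in most tissues, was 1.44-fold lower in SHR on 1 of its 2 probe sets, at the edge of the threshold. That probe set entered the test through its BN pools alone, and on the other the strains overlapped. Slc20a1, the other carrier of that family, had a lower signal in both SHR pools and did not pass the test.

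The brighter Slc34a1 probe set, 1368680_a_at, read 4922 in the nicotine pool and 5024 in the saline pool of SHR, against 3872 and 3888 in those of BN. The 2 SHR pools stood above the 2 BN pools without overlap, and pools of the same strain lay within 1.02-fold of each other. The log2 ratio, SHR over BN, was 0.36 (SE 0.06, 2 pools a side, limma adjusted p = 0.000369), with a 95% interval of 1.17-fold to 1.40-fold. The order of levels was SHR saline, SHR nicotine, BN saline and BN nicotine, and within a strain the neighbours in that order have no replicate to separate them.

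The second Slc34a1 probe set, 1370610_at, read 365.5 and 433.1 in SHR nicotine and SHR saline, against 211.2 and 216.8 in BN nicotine and BN saline. It had the same order of levels and the widest range of all members over the 4 arrays, 1.04 on the log2 scale. Its log2 ratio was 0.89 (SE 0.10, limma adjusted p = 3.29e-06), 1.86-fold with a 95% interval of 1.61-fold to 2.15-fold. Between the nicotine pools SHR was 1.73-fold higher than BN, and between the saline pools 2.0-fold higher. Both Slc34a1 probe sets passed with any 1 array left out. Neither passed with no filter on dim probe sets, where 0 of 15866 did (limma adjusted p = 0.482 for 1368680_a_at and 0.34 for 1370610_at), and 1368680_a_at also missed the threshold without the intensity trend (adjusted p = 0.0782).

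The 2 probe sets of Slc34a1 shared a direction and differed in size. The log2 ratio of 1370610_at exceeded that of 1368680_a_at by 0.54 in the strain average, by 0.44 between the nicotine pools and by 0.63 between the saline pools. Their 95% intervals did not overlap, though the difference itself was not tested. The files do not say which transcript forms each probe set reads, and a sequence difference between the strains under a probe could not be examined in signal values.

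The stretch ahead of the gene start is shown because Slc34a1 passed the strain test on both of its probe sets. It is the RefSeq sequence of rat build GRCr8, which was assembled from a BN rat, at chr17:9238984-9239233 on the minus strand, and holds the 250 bases upstream of the start. Capitals mark matches of 6 bases on either strand. The letters searched were TATAAA for the TATA box, GTTAAT for part of a site of the proximal tubule factor HNF1, and, for part of a vitamin D receptor site, the letters AGTTCA and also the variant spelled GGTTCA. The 4 matches do not overlap each other.
Slc34a1: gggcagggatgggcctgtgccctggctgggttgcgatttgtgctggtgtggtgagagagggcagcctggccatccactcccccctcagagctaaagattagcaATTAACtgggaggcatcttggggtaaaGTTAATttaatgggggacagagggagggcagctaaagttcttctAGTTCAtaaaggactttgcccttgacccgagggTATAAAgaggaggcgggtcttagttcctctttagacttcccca
The TATAAA match lay 43 to 38 bases ahead of the start, and 12.9% of 33469 rat promoters of the same length hold that motif. There were 2 GTTAAT matches, in opposite orientation, 147 to 142 and 120 to 115 bases ahead of the start, and 6.45% of promoters hold at least 1. AGTTCA lay 76 to 71 bases ahead and is held by 12.2% of promoters. GGTTCA, held by 9.77%, had no match in this window, while the windows of Vdr and Cyp27b1 held 1 each. Promoter windows were found for 4 of the 8 genes. A match describes letters and is not evidence of binding, and the SHR sequence was not analysed here.

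Slc20a1 read 193.0 and 208.2 in SHR nicotine and SHR saline, against 231.0 and 235.1 in BN nicotine and BN saline. Both SHR pools lay below both BN pools. The log2 ratio of -0.22 (SE 0.11) did not pass the test (limma adjusted p = 0.189), and its 95% interval ran from 0.73-fold to 1.01-fold. Differences of that size were thus not settled by these 4 arrays.

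Slc20a2 was read by 2 probe sets that did not share a direction. On 1369234_at the signal was 70.4 and 70.7 in SHR nicotine and SHR saline, against 106.4 and 97.3 in BN nicotine and BN saline, with no overlap between the strains. The log2 ratio was -0.53 (SE 0.18, limma adjusted p = 0.0489), with a 95% interval of 0.53-fold to 0.90-fold. This probe set entered the test through its BN pools alone, since both SHR signals lay below the limit. It passed in 2 of the 12 other settings that gave a value, and its adjusted p ran from 0.0322 to 0.559 over them. It did not pass when any 1 of the 4 arrays was left out, with a limma adjusted p of 0.104 to 0.225.

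On the other Slc20a2 probe set, 1372747_at, SHR nicotine and SHR saline read 75.0 and 84.8, against 90.7 and 68.6 in BN nicotine and BN saline. The strains overlapped, the BN nicotine pool being the highest and the BN saline pool the lowest of the 4. With 1 of 4 values above the limit, this probe set did not enter either test.

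**Figure D2:**
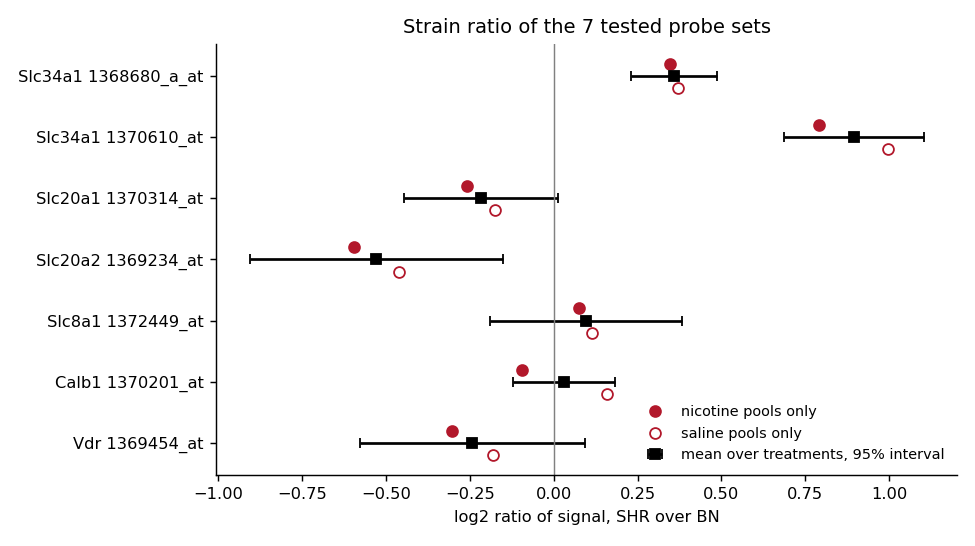
Log2 ratio of signal, SHR over BN, for the 7 member probe sets tested. Squares with bars give the average over treatments with its 95% interval from limma, filled circles the ratio between the nicotine pools and open circles that between the saline pools. Both Slc34a1 intervals lie above 0 and that of Slc20a2 1369234_at below it, while the intervals of the other 4 probe sets reach across 0.

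No calcium gene among the members passed the strain test. Calb1, which encodes calbindin, the intracellular calcium buffer of the distal convoluted and connecting tubule, read 1314 and 1607 in SHR nicotine and SHR saline, against 1403 and 1441 in BN nicotine and BN saline. The SHR pools were the lowest and the highest of the 4, so the strains overlapped. The log2 ratio was 0.03 (SE 0.07, limma adjusted p = 0.81), with a 95% interval of 0.92-fold to 1.14-fold. That interval leans on spread borrowed from other probe sets and holds no variation among animals. Without the intensity trend the SE was 0.109.

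Slc8a1, the sodium-calcium exchanger through which calcium leaves the distal cell, was measured by 1372449_at. It read 133.3 and 149.3 in SHR nicotine and SHR saline, against 126.5 and 137.9 in BN nicotine and BN saline. The strains overlapped, with a log2 ratio of 0.10 (SE 0.14, limma adjusted p = 0.687) and a 95% interval of 0.88-fold to 1.30-fold. The other Slc8a1 probe set, 1370588_a_at, read from 3.81 to 4.25 in SHR and from 6.37 to 11.1 in BN, below the floor on every array, so it gave no ratio.

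The vitamin D genes lay near the limit of what these arrays measure. Vdr, the nuclear receptor for active vitamin D, read 88.0 and 102.4 in SHR nicotine and SHR saline, against 108.6 and 116.2 in BN nicotine and BN saline. Both SHR pools lay below both BN pools. The log2 ratio of -0.24 (SE 0.16) did not pass (limma adjusted p = 0.33), with a 95% interval of 0.67-fold to 1.07-fold.

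Cyp27b1, which makes the active hormone in the proximal tubule, read 51.8 and 59.6 in SHR nicotine and SHR saline, against 62.2 and 57.8 in BN nicotine and BN saline. All 4 values lay above the floor and below the limit for a measured probe set, so it was not tested. The strains overlapped.

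Of the 7 member probe sets tested for strain, 3 passed, 2 higher and 1 lower, against 18% of all probe sets tested. The members' median log2 ratio was 0.03, against 0.00 for all probe sets tested. The SHR and BN pools did not overlap for 5 of the 7, against 59.8% of all probe sets tested. Both SHR pools stood above both BN pools for 2 of the 7, against 30.8% of all, and below them for 3, against 28.9%. With 2 of the 3 passes from the same gene and the third at the threshold, the count rests on Slc34a1. Between single pools, 2 members were at least 1.5-fold apart under nicotine and 1 under saline, where 8.45% and 8.12% of measured probe sets were.

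In the nicotine pools the members tested averaged lower signals, by small amounts that did not pass the test. All 6 member probe sets tested, of 5 genes, had a nicotine average below saline, with a median log2 ratio of -0.14. For all 6929 probe sets tested the median was 0.00, and 49.7% lay below 0. Among member probe sets not tested for nicotine, both of Slc20a2 averaged higher under nicotine and that of Cyp27b1 lower. None of the 6 had an adjusted p under 0.05 with limma, and 1 had an unadjusted p under 0.05. Of all probe sets 0% passed, and 378, or 5.46%, had an unadjusted p under 0.05.

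Calb1 was that 1 member. It read 1314 in the SHR nicotine pool against 1607 in the SHR saline pool, and 1403 in the BN nicotine pool against 1441 in the BN saline pool. Both nicotine pools lay below both saline pools, by a log2 ratio of -0.29 in SHR and of -0.04 in BN. The average was -0.16 (SE 0.07, unadjusted p = 0.039, adjusted p = 0.872 with limma), with a 95% interval of 0.80-fold to 0.99-fold. The SHR pair carried most of the average.

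Slc8a1 1372449_at was the other member whose nicotine pools both lay below both saline pools, at 133.3 against 149.3 in SHR and 126.5 against 137.9 in BN. Its average of -0.14 (SE 0.13) had an adjusted p of 0.998 with limma. Nicotine and saline pools thus did not overlap for 2 of 6 members, against 20.8% of all probe sets tested in either direction and 10.5% with nicotine lower.

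Vdr read 88.0 under nicotine against 102.4 under saline in SHR, and 108.6 against 116.2 in BN. The nicotine log2 ratios of -0.22 and -0.10 averaged -0.16 (SE 0.16). The 2 treatments overlapped, since the BN nicotine pool (108.6) read above the SHR saline pool (102.4).

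For the phosphate carriers the nicotine ratios were unequal between the 2 probe sets of Slc34a1. On 1370610_at the log2 ratio was -0.24 in SHR and -0.04 in BN, while on 1368680_a_at it was -0.03 and -0.01. The averages were -0.14 (SE 0.10) and -0.02 (SE 0.06), with 95% intervals of 0.78-fold to 1.05-fold and 0.90-fold to 1.08-fold. Slc20a1 stood at -0.11 in SHR and -0.03 in BN.

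Of the 8 members measured in BN, 2 had a higher signal under nicotine, both of them probe sets of Slc20a2, with log2 ratios of 0.13 on 1369234_at and 0.40 on 1372747_at. Neither was measured in SHR, where the ratios below the limit were -0.01 and -0.18. None of the 6 members measured in SHR or of the 8 measured in BN was 1.5-fold apart, and 1.98% and 1.63% of all measured probe sets were. The SD of the log2 ratio over all measured probe sets was 0.21 in SHR and 0.20 in BN. Calb1, Slc34a1 1370610_at and Vdr lay beyond 1 SD in SHR, and Slc20a2 1372747_at did in BN. In SHR all 6 members measured were lower under nicotine, with a median of -0.19, against a median of -0.01 and 51.7% lower over all measured probe sets. In BN 6 of 8 were lower, with a median of -0.03, against 48.9% lower.

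No cell type marker passed the nicotine test on any of its tested probe sets with limma, and their nicotine ratios were not all near 0. The 8 proximal tubule probe sets were split, 4 higher and 4 lower, with a median log2 ratio of -0.00. Of the distal convoluted tubule markers, which share a segment with Calb1 and Slc8a1, Slc12a3 was the one tested, at -0.13. Of 7 probe sets of the connecting tubule and collecting duct, 5 were higher and 2 lower under nicotine, with a median of 0.03. The water channel gene Aqp2 in that list read 598.3 under nicotine against 864.1 under saline in SHR, and 903.9 against 1012 in BN, an average of -0.35 (limma adjusted p = 0.273). The summed signal of that list was 2451 under nicotine against 2641 under saline in SHR, and 2665 against 2766 in BN. In each strain the signal of Aqp2 alone was lower by more than that sum was. All 3 immune probe sets tested had positive nicotine ratios (median 0.19). The immune sum was 3911 under nicotine against 3303 under saline in SHR, while in BN it was 2777 against 2526. The part of these markers in the members' nicotine ratios was not tested.

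**Figure D3:**
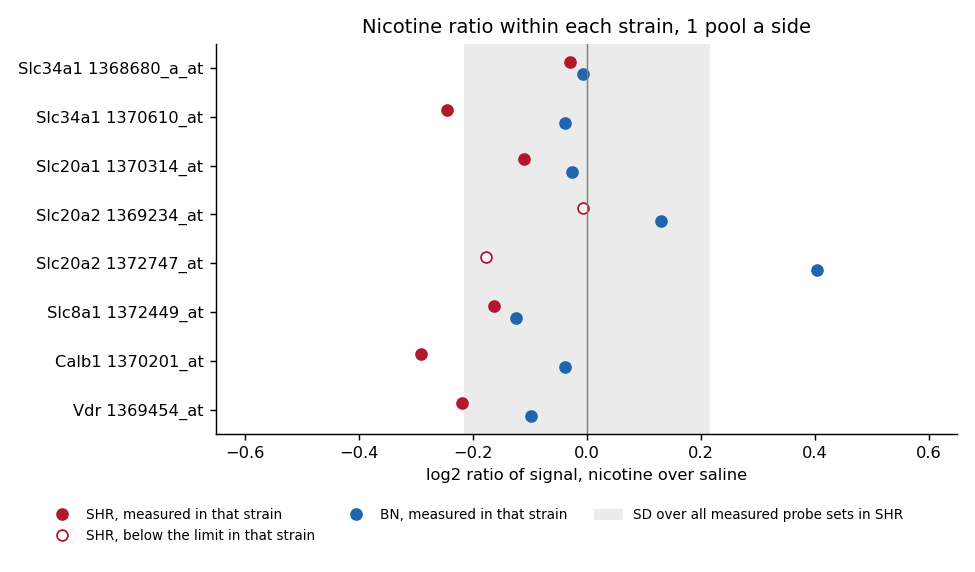
Log2 ratio of signal, nicotine over saline, for the 8 member probe sets measured on at least 1 array, in SHR and in BN, with 1 pool a side and no error. Filled circles are ratios with a signal at or above the limit in that strain and open circles ratios below it, and the grey band spans 1 SD over all measured probe sets in SHR. The points run from -0.29 for Calb1 in SHR to 0.40 for Slc20a2 1372747_at in BN.

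Around these members, other genes of phosphate handling were read from a list of 22 genes, of which 20 had a probe set, 15 were tested for strain and 6 passed. Those higher in SHR were Slc34a2, a sodium-phosphate carrier best known from lung and intestine, Stc1, a hormone that acts on calcium and phosphate transport, Pdzk1, a scaffold of the proximal brush border, Alpl, an alkaline phosphatase, and Slc17a1, a carrier of phosphate and organic anions. Pth1r, the parathyroid hormone receptor, was the gene that passed with lower signal. Counted by probe set, 6 of 18 passed, or 33.3% against 18% of all, and the median log2 ratio was 0.03. With the floor at the 60th percentile, which keeps brighter probe sets, 28.4% of all passed. The share of the list at that floor was not counted, so 33.3% and 28.4% are not compared. This list and the next ones were chosen with earlier results of these data known, so their shares are descriptions.

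Slc34a2 read 120.2 and 107.6 in SHR nicotine and SHR saline, against 60.3 and 67.1 in BN nicotine and BN saline, 1.79-fold higher in SHR (log2 0.84, SE 0.18, limma adjusted p = 0.00306). The BN signals lay below the limit, so it entered the test through SHR. Stc1 read 135.6 and 187.1 in SHR, against 96.7 and 92.9 in BN, on the probe set above the floor (log2 0.75, SE 0.16, limma adjusted p = 0.00232). For both genes the SHR pools stood above the BN pools without overlap. With 1 array left out, Slc34a2 missed the threshold without BN nicotine (limma adjusted p = 0.0691), and Stc1 passed in 1 of the 4 cases, with adjusted p up to 0.126.

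Pdzk1 read 2534 and 2498 in SHR against 2090 and 2048 in BN, 1.22-fold higher (limma adjusted p = 0.00389). Alpl and Slc17a1 both stood at a log2 ratio of 0.25, with limma adjusted p of 0.0478 and 0.0461. Pth1r read 974.0 and 925.5 in SHR against 1089 and 1154 in BN, with a log2 ratio of -0.24 (SE 0.07, limma adjusted p = 0.0265). Its other probe set, not tested for strain, read 96.22 and 69.05 in SHR against 95.05 and 77.73 in BN, so the strains overlapped there. With any 1 array left out, Alpl, Slc17a1 and Pth1r did not pass, with limma adjusted p up to 0.425, 0.334 and 0.237, and Pdzk1 did not pass without either BN array, with adjusted p up to 0.0895. The scaffold gene Nherf2 had log2 ratios of -0.36 and -0.33 on its 2 probe sets and passed on neither (limma adjusted p = 0.241 and 0.209). Kl, which encodes the FGF23 co-receptor klotho, had a log2 ratio of 0.21 (limma adjusted p = 0.356).

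Of 24 other genes of calcium and magnesium transport, 20 had a probe set, 9 were tested and 2 passed, both lower in SHR. Counted by probe set, 2 of 10 passed, or 20%, against 18% of all, and the median log2 ratio was -0.03. Casr, the calcium-sensing receptor of the thick ascending limb, read 86.8 and 68.5 in SHR nicotine and SHR saline, against 146.5 and 159.7 in BN nicotine and BN saline. That was 1.98-fold lower in SHR (log2 -0.99, SE 0.16, limma adjusted p = 0.000277), with both SHR signals below the limit and no overlap. Slc12a3, the sodium-chloride carrier of the distal convoluted tubule, read 293.4 and 350.0 in SHR against 400.1 and 400.7 in BN (log2 -0.32, SE 0.09, limma adjusted p = 0.0235). With 1 array left out, Casr missed the threshold without BN saline (limma adjusted p = 0.0585), and Slc12a3 passed in 1 of the 4 cases, with adjusted p up to 0.25. Slc41a1, a magnesium transporter, had a log2 ratio of 0.29 and did not pass (limma adjusted p = 0.305). The entry channels Trpv5 and Trpv6 and the small calcium-binding protein gene S100g were among 10 genes below the limit on all 4 arrays, so the calcium entry step was not measured.

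In the vitamin D list of 22 genes, 20 had a probe set, 12 were tested and 5 passed, 2 higher and 3 lower in SHR. By probe set, 6 of 15 passed, or 40%, against 18% of all, with a median log2 ratio of 0.03. As for the phosphate list, that share is a description of a list chosen with earlier results known. Lrp2, which encodes the endocytic receptor megalin, read 2657 and 2728 in SHR nicotine and SHR saline, against 2172 and 2221 in BN nicotine and BN saline (log2 0.29, SE 0.06, limma adjusted p = 0.00273). Amn, which anchors cubilin in the membrane, was higher in SHR on both of its probe sets, with log2 ratios of 0.42 and 0.24 (limma adjusted p = 0.00128 and 0.0379). With 1 array left out, Lrp2 did not pass without either BN array, with limma adjusted p up to 0.0854, and the Amn probe sets passed in 1 and in 0 of the 4 cases, with adjusted p up to 0.114 and 0.387.

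Cubn, which encodes cubilin itself, read 941.2 and 983.2 in SHR against 1410 and 1437 in BN, 1.48-fold lower (log2 -0.57, SE 0.07, limma adjusted p = 8.57e-06), and passed without any 1 array. Lrpap1, a chaperone of megalin, fell on 1 of its 2 probe sets (log2 -0.25, limma adjusted p = 0.0150), the other standing at -0.17. Gc, the plasma carrier of vitamin D, had a log2 ratio of -0.25 on the probe set tested (limma adjusted p = 0.0460). Its other probe set went the opposite way, at 58.3 and 71.1 in SHR against 39.3 and 33.4 in BN. That probe set lay below the limit on all 4 arrays, and below the floor in BN, so it was not tested. Neither Lrpap1 nor Gc passed when any 1 array was left out, with adjusted p up to 0.173 and 0.435. The receptor partners Rxra and Rxrb were below the limit on all 4 arrays. The partner Rxrg was tested and did not pass (log2 0.20, limma adjusted p = 0.348). No probe set of the 3 lists passed the nicotine test.

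**Figure D4:**
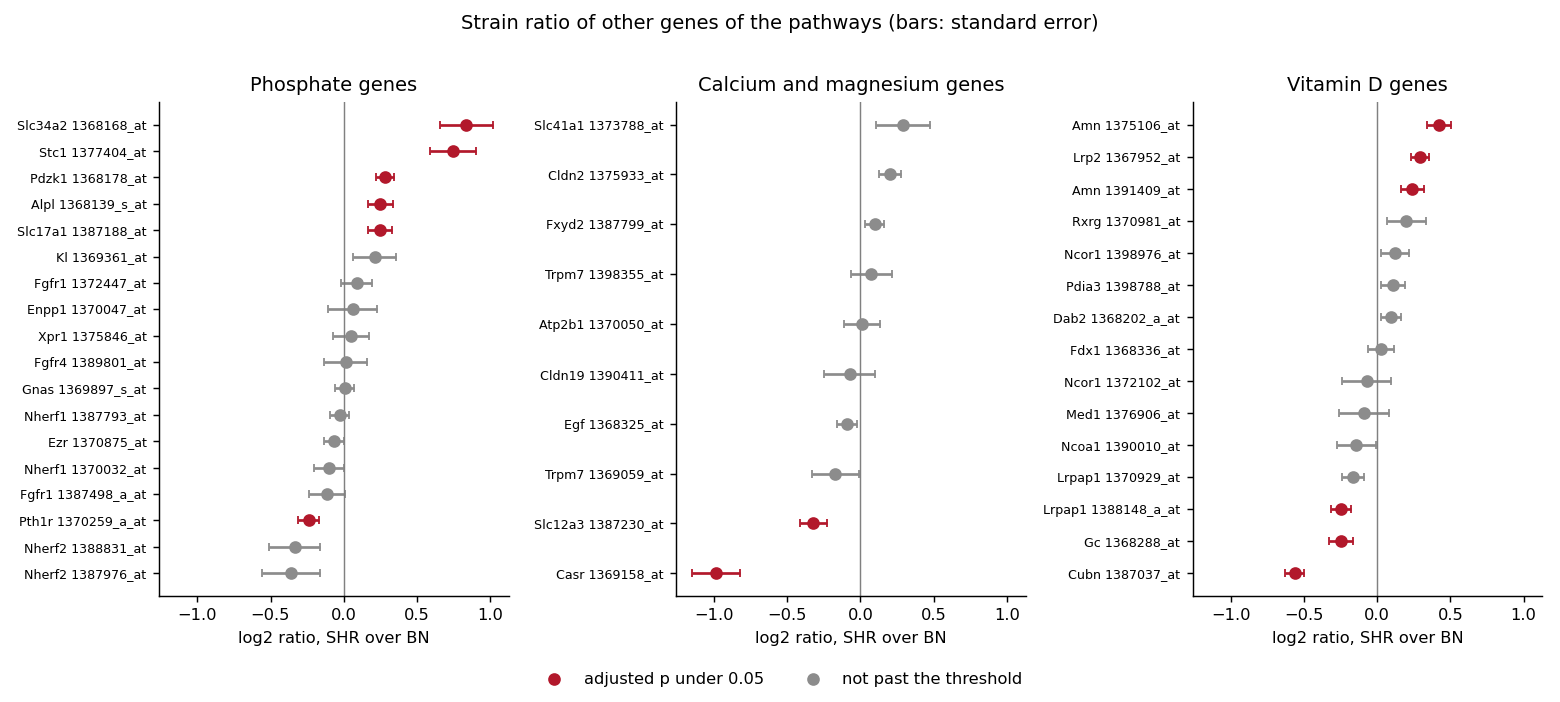
Log2 ratio of signal, SHR over BN, of the tested probe sets of other genes of phosphate, of calcium and magnesium and of vitamin D handling, each point an average over treatments with its standard error from limma. Red points have an adjusted p under 0.05. Slc34a2 and Stc1 lie furthest above 0, and Casr at -0.99 lies furthest below.

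Markers of the nephron segments that hold these genes were read on the same arrays. All 7 proximal tubule markers were tested on 8 probe sets, with 3 genes passing as higher and 1 as lower in SHR. By probe set, 4 of 8 passed, against 18% of all. The summed signal of these markers was 18790 and 18866 in SHR nicotine and SHR saline, against 17587 and 17488 in BN nicotine and BN saline. The glucose carrier gene Slc5a2 had a log2 ratio of 0.37, the anion carrier gene Slc22a6 of 0.30 and Lrp2 of 0.29, and all passed as higher in SHR. Cubn went the other way, at -0.57. Those that did not pass were Ggt1 at 0.13, Gatm at 0.23 and the water channel gene Aqp1 at 0.08 and -0.01 on its 2 probe sets. In whole kidney RNA, fewer cells of a type and less RNA per cell cannot be told apart, and the part of segment content in the Slc34a1 difference was not tested.

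Of the 4 distal convoluted tubule markers, 2 had a probe set. Slc12a3 was lower in SHR, and Pvalb, with signals from 2.06 to 2.81, was below the floor throughout. Of 3 thick limb markers, Umod was higher (log2 0.37) and Slc12a1 lower (log2 -0.76) in SHR. The part of thick limb content in the Casr difference was not tested. Of the 7 markers of the connecting tubule and collecting duct, 1 gene passed as higher and 2 as lower. By probe set, 3 of 7 tested passed, against 18% of all. For the thick limb it was 2 of 3. Markers of adrenal cortex, adipocytes and skeletal muscle did not reach the limit on any array, with summed signals of at most 102.5, 66.2 and 72.3.

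Of the remaining markers, 2 immune genes (Lyz2 and Fcer1g), the endothelial Kdr and the intercalated cell gene Slc4a1 passed as higher in SHR. The podocyte gene Podxl passed as lower. Cd74 (log2 0.21), Emcn (0.12), Pecam1 (-0.19) and Synpo (-0.10) did not pass. Slc4a1 passed on 1 of its 2 probe sets, the other standing at 0.33. The other Podxl probe sets lay below the limit on all 4 arrays. Of the probe sets tested, 2 of 3 immune and 1 of 3 endothelial ones passed, against 18% of all. For intercalated cells and podocytes it was 1 of 2 each. Of all the markers, only Lrp2, Cubn and Slc12a3 were also run with 1 array left out. Summed immune marker signal was 3911 and 3303 in SHR nicotine and SHR saline, against 2777 and 2526 in BN nicotine and BN saline. No smooth muscle marker passed.

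The profile of Slc34a1 1370610_at over the 4 arrays was compared with 6409 measured probe sets of other named genes, by the root mean square distance of centred log2 signals. The nearest were Tpp2 (0.03), Pecr (0.04), Psph (0.04), Marchf9 (0.04) and Ak4 (0.05). Pecr, a peroxisomal enoyl-CoA reductase, read 2374 and 2663 in SHR nicotine and SHR saline, against 1340 and 1314 in BN nicotine and BN saline. Psph, the phosphatase that completes serine synthesis, read 212.8 and 239.8 in SHR against 113.4 and 121.0 in BN. Both BN values of Marchf9 lay below the floor. Those of Tpp2 (53.9 and 58.1) and Ak4 (61.2 and 62.5) lay below the limit. Marchf9, Tpp2 and Ak4 thus counted as measured through the SHR pools alone. With 4 arrays, near profiles are found by search among many, and the distances are a description.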

How the data were processed

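The authors deposited linear signal intensity for 15923 probe sets on 4 arrays, made with MAS5 per the submitters' processing notes, whose version and options no source here records. RNA was extracted with Trizol and biotin-labelled, per the labels' protocols, and pooled within a group, per the series' design text. All arrays had a 2% trimmed mean of 150.0, so no further scaling was applied. The 57 control probe sets were left out, leaving 15866. Of these, 12783 had 1 platform gene symbol, 312 several and 2771 none. Of the single symbols, 12748 were matched through the gene identifier to RefSeq, and the RefSeq symbol was used.

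Signals were raised to the floor and converted to log2. Additive models of strain and treatment were fitted with limma 3.58.1 in R 4.3.3, using lmFit and eBayes with an intensity trend. They leave 1 residual degree of freedom, which also holds any nicotine response that differs between strains, and borrow 16.41 and 14.26 prior degrees of freedom for strain and nicotine. Probe sets were fitted separately. The number of arrays limits the precision.

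On simulated arrays of 6694 probe sets with 200 changed, 65 of 67 changed 1.5-fold were recovered for strain and 63 of 67 for nicotine. Of 6494 unchanged probe sets, 10 passed for strain and 5 for nicotine. The simulated noise was normal with an SD set by signal level alone. It thus checks the code and does not give the power of the real arrays. Other normalisations, floors, filters, models and left-out arrays were tried.

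All members are named. Of each pathway list, genes past the threshold and the 3 with the largest strain ratio are named. A few others (Kl, Trpv5, Trpv6, S100g, Rxra, Rxrb, Rxrg) were chosen after their values were seen. The members and lists were chosen with earlier results of these data known.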

Additional observations from a re-analysis of the deposited data

Results flagged for a closer look

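Calb1 had strain ratios of opposite sign under the 2 treatments: the log2 ratio, SHR over BN, was -0.09 between the nicotine pools and 0.16 between the saline pools. Each ratio rests on 1 pool a side and the difference between them was not tested.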

How the results depend on the processing

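Of the 3 member probe sets past the strain threshold, the same direction was kept in all 13 alternatives for Slc34a1 1368680_a_at (log2 0.26 to 0.37) and in all 12 that gave a value for Slc34a1 1370610_at (0.77 to 1.02) and Slc20a2 1369234_at (-0.59 to -0.44). The count of 3 became 0 with no filter on dim probe sets, where no probe set of the whole table passed, and 1 with the brightest probe set of each gene, where 1 fewer Slc34a1 probe set entered and Slc20a2 had an adjusted p of 0.0519. The cause of the loss without a filter was not tested. Slc34a1 1368680_a_at also missed the threshold without the intensity trend (limma adjusted p = 0.0782). Leaving out 1 array with strain as the only factor gave a count of 2 in each of the 4 cases, both Slc34a1. Leaving out 1 array moved the Calb1 strain ratio between -0.114, with the sign changed, without SHR saline, and 0.177 without SHR nicotine. Under quantile normalisation the nicotine ratio of Slc34a1 1368680_a_at changed sign to 0.025. Of 14 probe sets of other pathway genes past the strain threshold, run under the same alternatives after the data were seen, 1 (Cubn) passed with each array left out in turn, 7 in some of these cases and 6 in none, and none changed direction. No member passed the nicotine test in any of the 8 alternatives. With 3 arrays nicotine ratios are those of the other strain alone and have no test. Over all probe sets, strain calls numbered 1270, against 737 after quantile normalisation, 834 after cyclic loess, 611 without the trend, 0 without the filter and 373 to 610 without 1 array, and nicotine calls 0, against 12 with the floor at the 60th percentile. No paired analysis was possible because each group is 1 pool and the labels carry no replicate numbers.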
